A study of Mus musculus with 5 samples.

Results

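The collagen chains are the genes whose only annotated symbol has the form Col, a number, a, and a number. This rule found 44 of the 22180 genes on the arrays, carried by 47 probe sets. Col1a2, Col5a1 and Col6a1 had more than 1 probe set, and there the one with the highest mean over all 5 arrays was used. Each array measured total RNA from the heart of a male mouse of the C57BL/6 background at 12 weeks of age. The wild type group held 3 arrays, named by their labels replicates 3, 4 and 5. The Akita group held 2 arrays, replicates 1 and 3, from mice described as Ins2+/- with a mutation in the Insulin 2 gene, a model of type 1 diabetes. The misfolded insulin of this allele damages the pancreatic beta cells. The labels do not name the part of the heart taken, and do not say that the RNAs are of different mice. The p-values therefore rest only on how far these samples differ, and that spread may be technical. All values are log2 signals of probe sets, and 1 log2 unit is a doubling. Probe sets differ in how well they bind, so a signal is compared only with the same chain on other arrays.

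Collagens are secreted proteins of 3 chains wound into a triple helix. Fibrillar collagens (types I, III and V among them) are cut from procollagen and assemble into the cross-linked fibres that give the heart its tensile strength, and are made mainly by fibroblasts. Type IV collagen forms the sheet-like scaffold of basement membranes around myocytes and capillaries, where types XV and XVIII also lie. Type VI forms beaded filaments beside the basement membrane. FACIT chains decorate fibril surfaces, and further chains form short-chain networks, anchoring fibrils or membrane-spanning proteins. Excess fibrillar collagen is the defining feature of cardiac fibrosis, a change often looked for in diabetic hearts.

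Akita hearts were compared with wild type hearts of the same background. No collagen chain passed the test: 0 of the 41 chains tested had an adjusted p under 0.05 by limma, where 0.328% of all 15528 genes tested did. At an unadjusted p under 0.05 there were 5 chains, Col23a1, Col6a1, Col8a2, Col4a6 and Col20a1. The share of all genes with such a p was 13.6%. All 5 chains lay higher in Akita, a direction in which 4.13% of all genes had such a p, and 0 lay lower, where the share of all genes was 9.49%. In 38 of the 41 chains the Akita mean was above the wild type mean, against 43.5% of all genes tested, a share that varied with brightness (given by class below). Of these 38, Col11a1 and Col19a1 had wild type means of 4.04 and 4.06, under the filter at 4.064, and were tested only through their Akita values. With the filter set on the wild type mean instead, an alternative added after seeing the data, the floor was 4.02. The same 41 chains passed it, these 2 included, so the count of 38 could not change. The share of all genes lying higher was then 42.6%. The median difference over the 41 was 0.16 (log2), against -0.03 over all genes tested. Over all 44 chains, untested ones included, it was 0.16 as well. Without Akita replicate 3, 26 of 41 chains lay higher (39.5% of all genes) and the median was 0.07. Without Akita replicate 1 it was 33 of 41, and without wild type replicate 3 also 33 of 41. Col6a4, Col6a5 and Col10a1, with mean signals of 3.80, 3.84 and 3.64, lay under the filter on dim genes at 4.06 and were not tested.

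**Figure D1:**
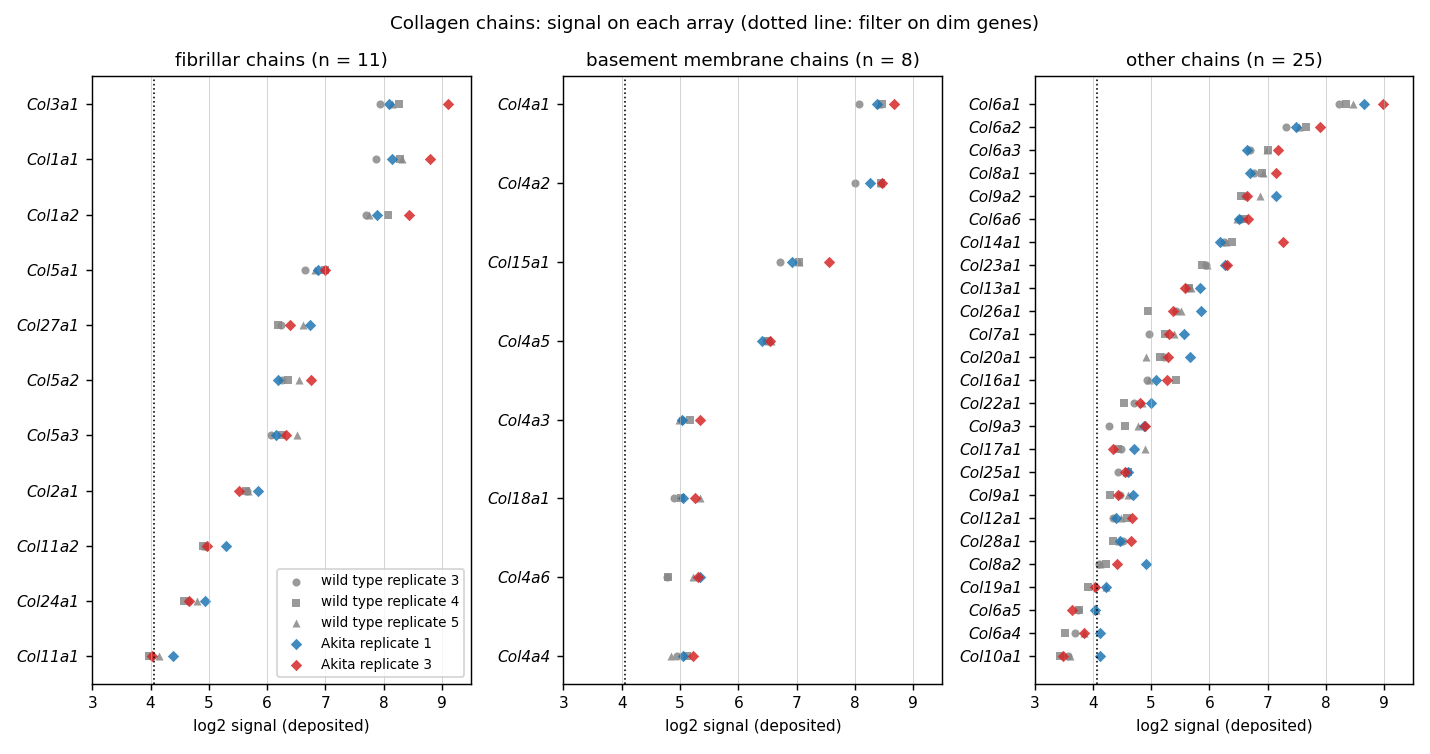
The plot gives the deposited log2 signal (x axis) of each of the 44 chains (y axis) on each array, in 3 panels for fibrillar, basement membrane and other chains; grey symbols are the 3 wild type arrays, blue and red diamonds Akita replicates 1 and 3, and the dotted line the filter at 4.06. Red diamonds stand to the right of the grey symbols in Col3a1, Col1a1, Col15a1 and Col14a1, and blue ones in Col8a2, Col20a1 and Col10a1.

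The 2 Akita arrays did not carry the same chains. The chains were divided by their mean signal over all 5 arrays at the 50th and 75th percentile of all genes (5.21 and 7.03), the latter chosen after the values were seen. Akita values entered these means, so a chain high in Akita could reach a higher class through them. The Akita mean was above the wild type mean in 16 of 17 dim chains, against 2939 of all 4436 dim genes. It was so in 14 of 16 middle chains (1993 of 5539 genes) and in 8 of 8 bright chains (1800 of 5553 genes). All 8 chains of the bright class (Col1a1, Col1a2, Col3a1, Col4a1, Col4a2, Col6a1, Col6a2 and Col15a1) were highest in Akita replicate 3, where 28% of all bright genes were above every wild type array. Their median in that array was 0.61 above the wild type mean, against -0.01 for all bright genes. In Akita replicate 1 the same 8 chains had a median of -0.01, against -0.14 for all bright genes, and 1 of them, Col6a1, was above every wild type array, where the share of bright genes was 10.9%. In the middle class 8 of 16 chains were above every wild type array in Akita replicate 1 (all genes 18%) and 7 of 16 in replicate 3 (23.1%). In the dim class it was 8 of 17 chains in both, where the share of all dim genes was 49.5% in replicate 1 and 24.1% in replicate 3. Col15a1 was in the bright class, and Col20a1 and Col7a1 in the middle class, only through their Akita values. With classes at the same percentiles of the wild type mean, also added after seeing the data, the bright class held 7 chains, without Col15a1. All 7 were above every wild type array in Akita replicate 3 (26.8% of all bright genes), with a median of 0.60. The middle class then had 7 of 16 chains above every wild type array in Akita replicate 1 (16.7% of all middle genes). The dim chains of Akita replicate 1 lay as high as dim genes did in general, with medians of 0.16 for both. Wild type replicate 3 was the lowest wild type array in all 8 bright chains, with a median of -0.20, against 0.04 for all bright genes.

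**Figure D2:**
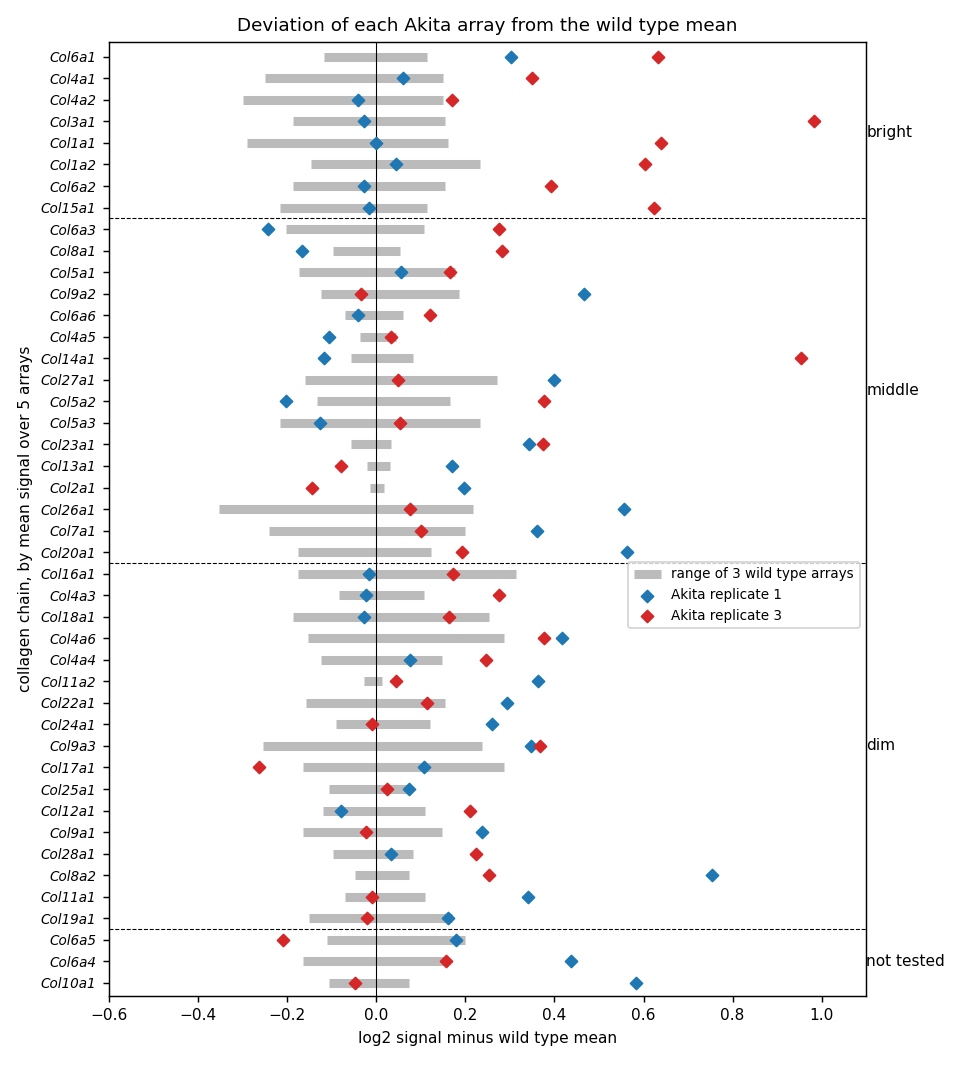
The plot gives the log2 signal minus the wild type mean (x axis) for each chain (y axis, ordered by mean signal), with Akita replicate 1 in blue, Akita replicate 3 in red, the range of the 3 wild type arrays as a grey bar, and dashed lines between the brightness classes. The 8 red points of the bright class all lie right of their bars, from 0.17 in Col4a2 to 0.98 in Col3a1, while 7 of the 8 blue points lie within them.

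**Figure D3:**
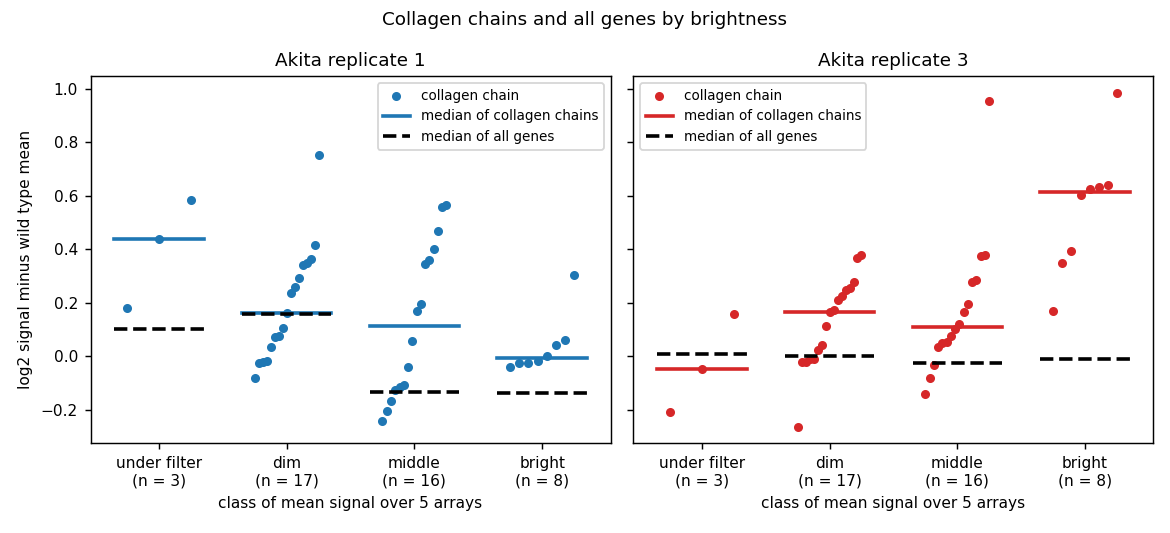
The plot gives the log2 signal minus the wild type mean (y axis) of collagen chains (points) in each brightness class (x axis) in Akita replicate 1 (left) and replicate 3 (right), with the median of the chains as a solid and of all genes as a dashed line. The medians of chains and of all genes are both 0.16 for dim genes in replicate 1, and stand at 0.61 and -0.01 for bright genes in replicate 3.

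The stretches before the start of 5 chains are shown because they stand for the patterns of the 2 Akita arrays. Col1a2 and Col3a1 stand for bright fibrillar chains high in Akita replicate 3. Col8a2 stands for a dim chain highest in replicate 1, and was also above every wild type array in replicate 3. Col6a1 and Col23a1 stand for chains high in both, though a dimmer probe set of Col6a1 was lower in both. Each line holds the 250 bases before the RefSeq start (GRCm38.p6), 5′ to 3′ on the gene's strand. Capitals mark the TATA box letters TATAAA, the CCAAT box letters CCAAT and the GC box letters GGGCGG, searched on both strands, where matches of 1 motif may overlap. The windows are chr6:4505368-4505617 (plus strand) for Col1a2, chr1:45311288-45311537 (plus) for Col3a1, chr4:126286544-126286793 (plus) for Col8a2, chr10:76726045-76726294 (minus) for Col6a1 and chr11:51289670-51289919 (plus) for Col23a1.
Col1a2: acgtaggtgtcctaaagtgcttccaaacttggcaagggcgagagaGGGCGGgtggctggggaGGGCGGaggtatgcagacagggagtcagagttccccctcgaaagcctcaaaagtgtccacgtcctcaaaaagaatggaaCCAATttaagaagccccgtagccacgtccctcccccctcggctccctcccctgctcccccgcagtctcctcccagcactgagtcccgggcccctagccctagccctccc
Col3a1: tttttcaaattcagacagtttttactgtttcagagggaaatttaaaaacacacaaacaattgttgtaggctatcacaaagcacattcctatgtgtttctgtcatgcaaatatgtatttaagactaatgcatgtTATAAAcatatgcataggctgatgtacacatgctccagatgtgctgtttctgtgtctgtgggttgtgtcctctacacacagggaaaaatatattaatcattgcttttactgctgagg
Col8a2: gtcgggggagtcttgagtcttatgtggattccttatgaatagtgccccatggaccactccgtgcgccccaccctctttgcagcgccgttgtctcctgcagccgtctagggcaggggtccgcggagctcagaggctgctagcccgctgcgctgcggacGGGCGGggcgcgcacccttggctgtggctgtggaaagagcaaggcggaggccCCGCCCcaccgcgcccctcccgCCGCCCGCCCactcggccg
Col6a1: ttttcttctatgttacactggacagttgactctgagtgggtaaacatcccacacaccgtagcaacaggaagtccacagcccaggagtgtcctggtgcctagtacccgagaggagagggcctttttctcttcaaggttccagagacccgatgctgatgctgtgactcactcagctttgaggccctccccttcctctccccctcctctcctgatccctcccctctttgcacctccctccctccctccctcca
Col23a1: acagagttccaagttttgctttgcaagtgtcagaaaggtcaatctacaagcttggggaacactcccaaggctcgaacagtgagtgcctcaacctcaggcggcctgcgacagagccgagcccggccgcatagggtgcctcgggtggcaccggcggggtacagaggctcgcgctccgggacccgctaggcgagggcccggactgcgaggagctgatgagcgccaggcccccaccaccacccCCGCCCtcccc
The Col1a2 window held 1 CCAAT and 2 GC box matches in a stretch of 62% G and C. The Col3a1 window, at 35.2% G and C, held 1 TATAAA and no other match, although both chains were high in Akita replicate 3. Col8a2 held 4 GC box matches, Col23a1 held 1, and Col6a1 held none of the 3 motifs. Windows were found for 35 of the 44 genes, 38 windows in all. The median G and C content was 59.0% in these windows and 52.4% in those of all genes. A GC box match was in 57.9% of these and in 32.7% of the 32851 windows of all genes. A CCAAT match was in 34.2% and 33.8%, and a TATAAA match in 13.2% and 12.4%. A match of letters is a description and no sign of a bound factor.

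Among the fibrillar chains, 10 of 11 lay higher in Akita and Col5a3 lay lower, with 0 past the test and a median difference of 0.17 (0.06 without Akita replicate 3 and 0.05 without Akita replicate 1). Col1a1 and Col1a2 encode the chains of type I collagen, the main fibre of the heart. Col1a1 stood at 7.86, 8.28 and 8.31 in wild type replicates 3, 4 and 5, and at 8.15 and 8.79 in Akita replicates 1 and 3. Col1a2 stood at 7.69, 8.07 and 7.75 in wild type and at 7.88 and 8.44 in Akita. In both chains Akita replicate 1 lay within the wild type range and replicate 3 above it. The difference was 0.32 for Col1a1 (SE 0.22, 95% interval -0.19 to 0.83, adjusted p = 0.566) and 0.32 for Col1a2 (SE 0.19, interval -0.13 to 0.78, adjusted p = 0.514). The chains that pair in type I deviated alike in the Akita arrays. From the wild type mean they lay by 0.00 and 0.04 in Akita replicate 1 and by 0.64 and 0.60 in replicate 3. They were less alike in wild type replicates 3, 4 and 5, at -0.29 and -0.15, 0.13 and 0.23, and 0.16 and -0.09. A dimmer probe set of Col1a2 differed by -0.16.

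Col3a1, whose type III collagen forms the finer fibres laid beside type I, held the highest deviation of any chain. It stood at 7.93, 8.27 and 8.15 in wild type and at 8.09 and 9.10 in Akita, so that replicate 1 was within the wild type range and replicate 3 was 0.98 above its mean. The difference of 0.48 (SE 0.27, interval -0.16 to 1.12, adjusted p = 0.491) became -0.03 without Akita replicate 3. Type V collagen is built into type I fibrils and limits their width. Col5a1 stood at 6.65, 7.00 and 6.82 in wild type and 6.88 and 6.99 in Akita. Col5a2 stood at 6.25, 6.35 and 6.55 in wild type and 6.18 and 6.76 in Akita. In Col5a2 the 2 Akita arrays were the lowest and the highest of the 5. The type V differences were 0.11 for Col5a1, 0.09 for Col5a2 (-0.20 without Akita replicate 3) and -0.04 for Col5a3, with adjusted p from 0.763 to 0.944.

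The fibrillar chains best known from cartilage, and the minor fibrillar types XXIV and XXVII, had the other order. Akita replicate 1 was the highest of the 5 arrays in Col2a1, Col11a1, Col11a2, Col24a1 and Col27a1, while replicate 3 was highest in Col1a1, Col1a2, Col3a1 and Col5a2. Col11a2, a type XI chain, stood at 4.94, 4.90 and 4.94 in wild type and at 5.29 and 4.97 in Akita. Its groups did not overlap, by 0.03 log2 units (difference 0.20, SE 0.13, adjusted p = 0.535). Col2a1, the chain of cartilage fibrils, lay at 5.64 to 5.67 in wild type, with Akita replicate 1 above at 5.85 and replicate 3 below at 5.51. These 5 chains differed by 0.03 to 0.23 and all had an adjusted p over 0.5. Col11a1, Col11a2 and Col24a1 were in the dim class, and Col2a1 and Col27a1 in the middle class. Of all genes, 49.5% of dim, 18% of middle and 10.9% of bright ones were above every wild type array in Akita replicate 1. Whether the order goes with the kind of chain or with brightness was not tested.

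Of the 8 basement membrane chains, 7 lay higher and Col4a5 lower, 0 passed the test, and the median difference was 0.14 (-0.02 without Akita replicate 3). Col4a1 and Col4a2 encode the chains of the common type IV network. Col4a1 stood at 8.07, 8.47 and 8.42 in wild type and 8.38 and 8.67 in Akita. Col4a2 stood at 8.00, 8.45 and 8.45 in wild type and 8.26 and 8.47 in Akita. Wild type replicate 3 was the lowest array in both, Akita replicate 1 lay between it and the other wild type arrays, and Akita replicate 3 was the highest. The difference was 0.21 for Col4a1 (interval -0.17 to 0.58, adjusted p = 0.627) and 0.07 for Col4a2 (interval -0.33 to 0.46, adjusted p = 0.905; -0.09 without wild type replicate 3 and -0.04 without Akita replicate 3). In the RefSeq table (GRCm38.p6) these genes start on opposite strands 21 bases apart.

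Col4a6 was the type IV chain with the smallest p. It stood at 4.78, 4.80 and 5.22 in wild type and 5.35 and 5.31 in Akita, so both Akita arrays were above all wild type arrays (difference 0.40, SE 0.16, adjusted p = 0.334). Its head-to-head neighbour Col4a5, which starts 1343 bases away on the X chromosome, lay at 6.48 to 6.56 in wild type and at 6.41 and 6.55 in Akita (difference -0.04, interval -0.29 to 0.22, adjusted p = 0.918). Col4a3 and Col4a4, chains of the specialised network known from the kidney glomerulus, differed by 0.13 and 0.16 and were highest in Akita replicate 3. Col15a1, which anchors basement membranes to nearby fibrils in muscle and capillaries, stood at 6.72, 7.05 and 7.04 in wild type and at 6.92 and 7.56 in Akita. Only Akita replicate 3 left the wild type range (difference 0.30, adjusted p = 0.559; -0.02 without that array). Col18a1, the source of endostatin, stood at 4.90, 5.02 and 5.34 in wild type and 5.06 and 5.25 in Akita (difference 0.07, adjusted p = 0.887; -0.03 without either Akita replicate 3 or wild type replicate 3).

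**Figure D4:**
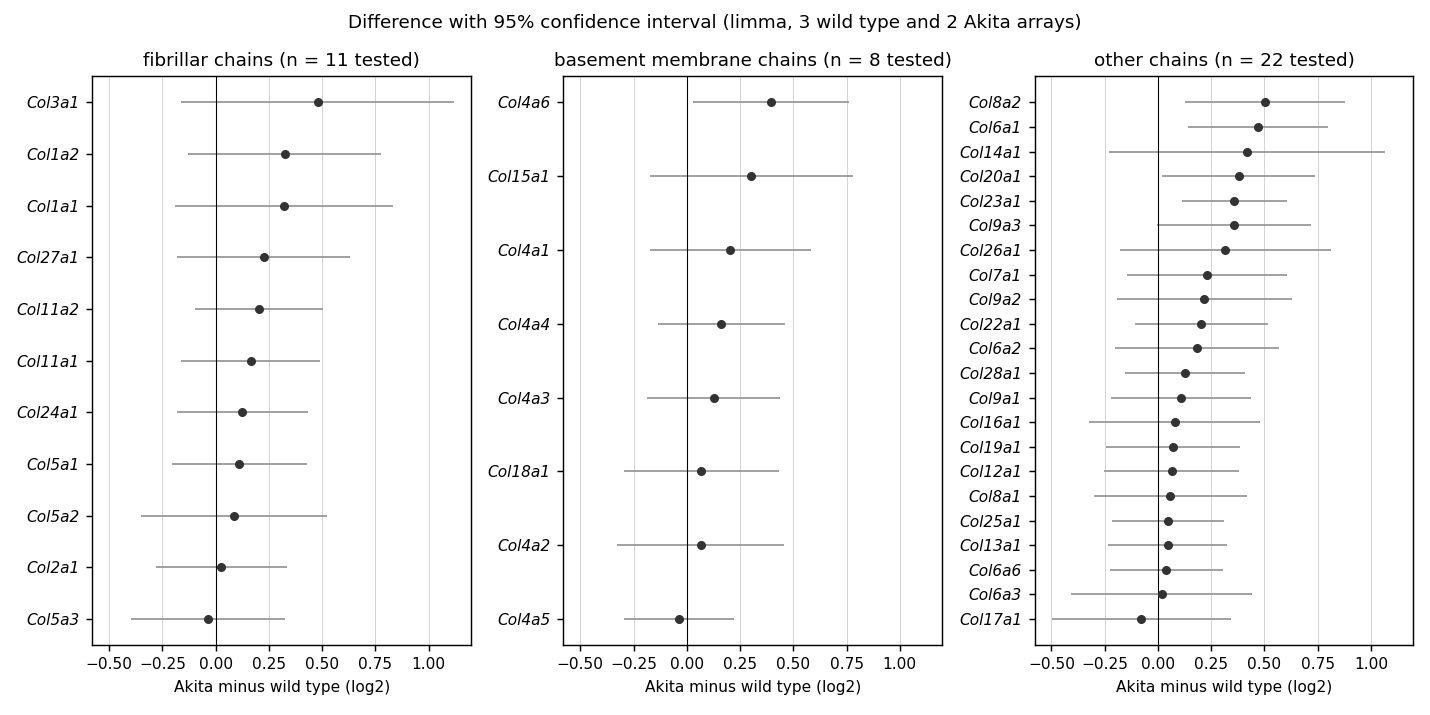
The plot gives the Akita minus wild type difference in log2 (x axis) with its 95% confidence interval from limma for the 41 chains tested (y axis), in panels for 11 fibrillar, 8 basement membrane and 22 other chains. All 11 fibrillar intervals include 0, and the intervals that do not are those of Col4a6, Col8a2, Col6a1, Col20a1 and Col23a1.

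Of the 25 other chains, 22 were tested, 21 lay higher, Col17a1 lay lower, and the median difference was 0.16. Groups did not overlap in 5 of them, and in 7 of all 41 chains, each time with Akita higher, against 9.89% of all genes; with Akita lower it was 0 chains, against 19.9% of all genes. Col6a1, a chain of the type VI beaded filaments, stood at 8.23, 8.35 and 8.46 in wild type and at 8.65 and 8.98 in Akita. Both Akita arrays were above all wild type arrays (difference 0.47, SE 0.14, interval 0.14 to 0.80, adjusted p = 0.239). A dimmer probe set of Col6a1 went the other way, at 5.93, 5.66 and 5.51 in wild type and 4.99 and 5.35 in Akita (difference -0.53), and the mean of both differed by -0.03. The chains that join Col6a1 in the trimer did not follow it in Akita replicate 1, where Col6a1 deviated by 0.30, Col6a2 by -0.03 and Col6a3 by -0.24 from the wild type mean. In replicate 3 the 3 chains deviated by 0.63, 0.39 and 0.28. Col6a2 differed by 0.18 (-0.03 without Akita replicate 3) and Col6a3 by 0.02 (-0.24 without it, and -0.02 with arrays centred on their median), with adjusted p of 0.672 and 0.978.

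Col23a1, a membrane-spanning collagen, had the smallest p of all chains. It stood at 5.95, 5.87 and 5.96 in wild type and at 6.27 and 6.30 in Akita (difference 0.36, SE 0.10, interval 0.11 to 0.60, adjusted p = 0.234). Col8a2, a chain of the short-chain network of endothelial and vascular matrix, stood at 4.11, 4.23 and 4.13 in wild type and at 4.91 and 4.41 in Akita. Its difference was 0.50 (SE 0.16, adjusted p = 0.262), the highest among the chains tested, and its partner Col8a1 differed by 0.06 (interval -0.30 to 0.42, adjusted p = 0.906; -0.17 without Akita replicate 3). Col8a1 stood at 6.77, 6.91 and 6.92 in wild type and 6.70 and 7.15 in Akita, so the 2 Akita arrays were the lowest and the highest. Col10a1, the chain of growth plate cartilage, was not tested and lay at 3.43 to 3.61 in wild type and at 4.12 and 3.49 in Akita.

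All 9 FACIT chains lay higher in Akita, by 0.07 to 0.42, with a median of 0.20 and 0 past the test. Col14a1, which binds the surface of type I fibrils, stood at 6.25, 6.39 and 6.28 in wild type and at 6.19 and 7.26 in Akita. Akita replicate 1 was the lowest of the 5 arrays and replicate 3 was 0.95 above the wild type mean (difference 0.42, SE 0.28, adjusted p = 0.554). Col20a1 stood at 5.22, 5.15 and 4.92 in wild type and 5.66 and 5.29 in Akita (difference 0.38, SE 0.15, adjusted p = 0.349). Col9a3, a type IX chain known from cartilage, stood at 4.28, 4.55 and 4.77 in wild type and 4.88 and 4.90 in Akita (difference 0.36, SE 0.16, adjusted p = 0.374). In both the groups did not overlap. Its type IX partners Col9a1 and Col9a2 differed by 0.11 and 0.22 and were highest in Akita replicate 1. Col22a1, found at tissue junctions, stood at 4.70, 4.54 and 4.85 in wild type and 4.99 and 4.81 in Akita (difference 0.20, adjusted p = 0.551). The other membrane-spanning chains, Col13a1, Col17a1 and Col25a1, differed by 0.05, -0.08 and 0.05. Col7a1, of the anchoring fibrils, and Col26a1 differed by 0.23 and 0.32 and were highest in Akita replicate 1.

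The machinery around collagen gave 1 call, where 0.328% of all 15528 genes tested were called. Counts of genes lying higher in this and the following lists stand against 43.5% of all genes tested. Medians in Akita replicates 1 and 3 stand against -0.07 and -0.01 over all genes tested. For replicate 1 the median was -0.13 over middle and -0.14 over bright genes. Counts above the wild type mean stand against 6102 of 15528 genes in replicate 1 and 7298 in replicate 3. Of 85 genes in 7 lists of collagen biology, 80 were analysed here, and of these Mmp8 and Mmp13 were under the filter. Ccn2, a matricellular growth regulator that stimulates collagen production in fibroblasts, stood at 7.84, 7.85 and 7.70 in wild type and rose to 8.69 and 8.86 in Akita (difference 0.98, SE 0.12, adjusted p = 0.0285 by limma). With any of the 5 arrays left out, its adjusted p was 0.0557 to 0.182, and with the mean of its probe sets it was 0.204 with a difference of 0.51. The other 11 regulators had no call. Tgfb1, the main fibrogenic cytokine, and Smad3, which carries its signal to collagen genes, differed by -0.31 and -0.27 (adjusted p = 0.460 and 0.467), and by -0.11 and -0.06 without Akita replicate 1. Tgfb1 stood at 8.08, 8.34 and 8.02 in wild type and 7.64 and 8.04 in Akita, so only replicate 1 was under the wild type range. The list's median difference was 0.02, and its Akita arrays lay on opposite sides of the wild type mean. In replicate 1 the median was -0.18, with 2 of 12 genes above that mean, and in replicate 3 it was 0.19, with 10 of 12 above.

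Of 18 genes in the list of procollagen modification and folding, 9 lay higher and 9 lower, with 0 past the test and a median difference of 0.00. Here too the Akita arrays were on opposite sides. The median in replicate 1 was -0.18 (all bright genes -0.14), with 4 of 18 genes above the wild type mean. That in replicate 3 was 0.10 (all bright genes -0.01), with 13 of 18 above. Crtap, part of the complex that hydroxylates prolines, stood at 9.18, 8.92 and 8.85 in wild type and 8.16 and 8.57 in Akita (difference -0.62, SE 0.16, adjusted p = 0.204). The prolyl hydroxylase subunit P4ha2 and the glycosyltransferase Colgalt2 differed by -0.29 and -0.28 (adjusted p = 0.332 and 0.362), with both Akita arrays under all wild type arrays. That held for 4 of the 18 genes, near the share of 19.9% of all genes. In 4 others both Akita arrays lay above all wild type arrays, against 9.89% of all genes. Serpinh1, the collagen chaperone, stood at 8.18, 8.35 and 8.32 in wild type and 8.23 and 8.35 in Akita (difference 0.01, interval -0.26 to 0.28, adjusted p = 0.987). Among the 11 genes of propeptide removal and cross-linking, 5 lay higher and 6 lower, with 0 past the test and a median of -0.08 (-0.22 in Akita replicate 1 with 4 genes above the wild type mean, and 0.13 in replicate 3 with 9). Bmp1, a procollagen C-proteinase, differed by -0.29, and its relatives Tll1 and Tll2 by 0.32 and 0.30, with adjusted p of 0.436 to 0.514. Lox, which cross-links the fibrils, differed by 0.03 (interval -0.39 to 0.45, adjusted p = 0.959).

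Proteins that coat the fibrils lay higher in 7 of 8 cases, with 0 past the test and a median of 0.17. In Akita replicate 3 the median was 0.58, with 7 of 8 above the wild type mean, and in replicate 1 it was -0.09, with 3 of 8 above. Lum, a small proteoglycan that spaces fibrils, lay at 8.24 to 8.31 in wild type and at 8.61 and 9.10 in Akita (difference 0.58, SE 0.16, adjusted p = 0.209). Dpt differed by 0.42 (adjusted p = 0.254) and Dcn by 0.18 (adjusted p = 0.562). Outside that list, Postn, a matrix protein of activated fibroblasts, lay at 7.93 to 8.04 in wild type and at 8.21 and 8.84 in Akita (difference 0.55, SE 0.18, adjusted p = 0.285). Like Col6a1, these 4 genes were highest in Akita replicate 3. Basement membrane partners lay higher in 8 of 11 cases with a median of 0.07 (-0.03 in Akita replicate 1 and 0.21 in replicate 3) and 0 past the test. The laminin chain genes Lama5 and Lamc1 differed by -0.27 and 0.15, and the nidogen gene Nid2 by 0.26. Collagen receptors lay higher in 8 of 10 cases (median 0.07, 0 past the test), with the integrin subunits Itga11 at 0.26 and Itgb1 at 0.16 and the receptor kinase Ddr1 at 0.20. Turnover genes lay higher in 7 of 8 cases (median 0.13, 0 past the test), with the gelatinase Mmp2 at 0.39, the protease Fap at 0.18 and the inhibitor Timp2 at 0.12. In Akita replicate 1 their median was -0.08, with 3 of 8 above the wild type mean, and in replicate 3 it was 0.28, with 7 of 8. Without Akita replicate 3, Mmp2 differed by 0.09 and Fap by 0.03. Adjusted p in these 3 lists was 0.359 or more.

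**Figure D5:**
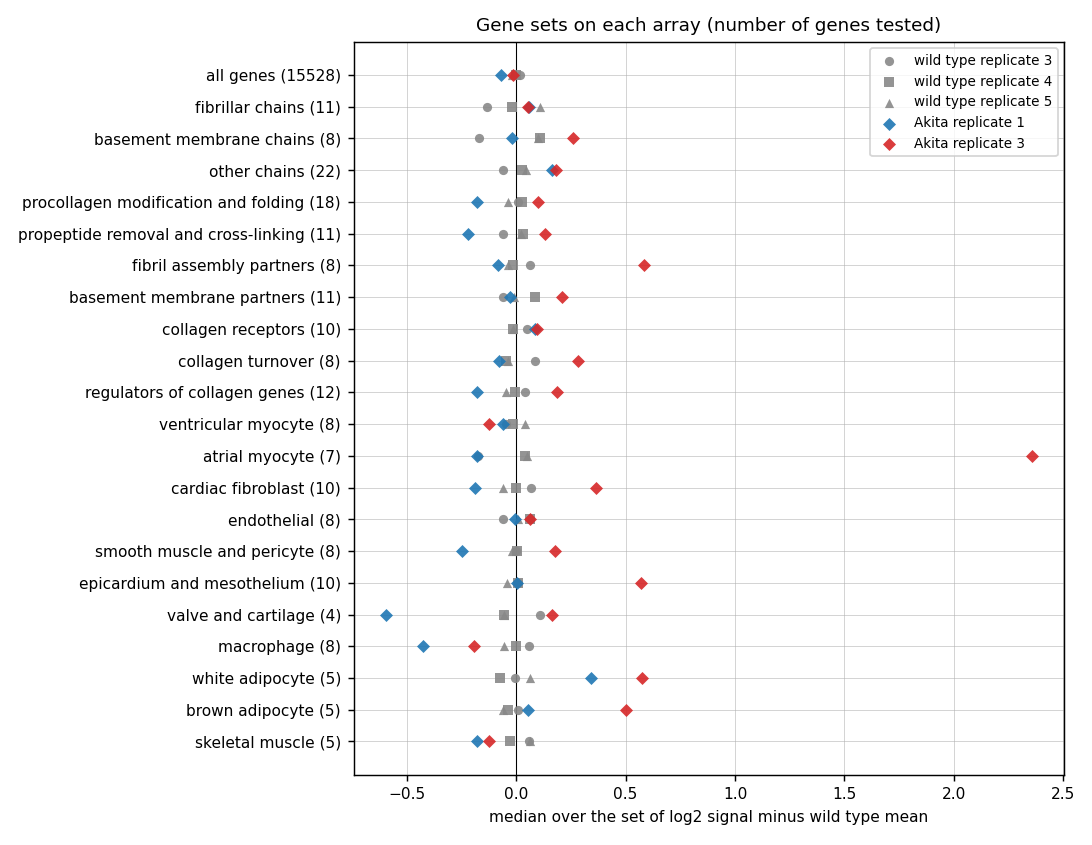
The plot gives, for each gene set (y axis, with the number of genes tested), the median of log2 signal minus wild type mean (x axis) on each array; grey symbols are wild type, blue and red diamonds Akita replicates 1 and 3. Akita replicate 3 stands at 2.36 for atrial myocyte markers, 0.57 for epicardium and mesothelium, 0.36 for fibroblasts and 0.26 for basement membrane chains, and Akita replicate 1 at -0.18, 0.005, -0.19 and -0.02.

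Markers of some other cell types moved with the chains in Akita replicate 3. The markers listed for ventricular myocytes checked only the tissue label, heart, and not the chamber taken. All 8 passed the filter, and Tnnt2 and Actc1 lay between 13.13 and 13.26 on every array. The list's median in the 2 Akita arrays was -0.06 and -0.12. In 5 of the 8 both Akita arrays lay under all wild type arrays, against 19.9% of all genes, with 0 past the test. Myl2, 1 of these, ranged from 8.55 to 8.66 in wild type and stood at 8.43 and 8.32 in Akita. Of 7 atrial myocyte markers, 6 lay higher in Akita. In replicate 1, however, 2 of the 7 were above the wild type mean (median -0.18), and in replicate 3 all 7 were (median 2.36). Their summed signal was 12.15 to 12.25 (log2) in wild type, 12.38 in Akita replicate 1 and 14.02 in replicate 3, and none was under the filter. Nppa, the brightest of them, made up most of that sum, at 11.79 to 11.98 in wild type and 12.21 and 13.39 in Akita. Sln, a regulator of the calcium pump, ranged from 7.74 to 8.13 in wild type and stood at 6.71 and 10.85 in Akita. Of 10 fibroblast markers, 6 lay higher, with a summed signal of 13.03 to 13.16 in wild type and 13.10 and 13.40 in Akita. Of 10 epicardial and mesothelial markers, 7 lay higher, with sums of 8.96 to 9.06 in wild type and 8.98 and 9.69 in Akita. The part of these cells in the collagen values was not tested. In whole tissue, more cells of a type and more RNA per cell cannot be told apart.

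Endothelial markers lay higher in 4 of 8 cases, with sums of 12.28 to 12.42 in wild type and 12.41 and 12.55 in Akita, and smooth muscle and pericyte markers in 5 of 8, with sums of 12.33 to 12.38 and 12.28 and 12.50. Markers of valve and cartilage were at 7.96 to 8.09 in wild type and 7.65 and 8.34 in Akita, with Acan, Matn1, Matn4 and Hapln1, 4 of the 8, under the filter. Of the 4 tested, 3 lay lower (Chad, Cnmd and Sox9) and Comp higher. Chad, a cartilage matrix protein, ranged from 5.44 to 6.09 in wild type and stood at 4.76 and 5.29 in Akita (difference -0.69, adjusted p = 0.280). Comp, a cartilage and tendon matrix protein, ranged from 5.56 to 5.90 in wild type and stood at 4.91 and 6.87 in Akita replicates 1 and 3. Of the cartilage chains named above, Col2a1, Col11a1, Col11a2, Col9a1, Col9a2 and Col10a1 had the other order, with Akita replicate 1 the highest. Col9a3 did not, at 4.88 in that array and 4.90 in replicate 3. In Akita replicate 1, 49.5% of all genes in the dim class, which held Col11a1, Col11a2 and Col9a1, were above every wild type array. The share was 18% in the middle class, which held Col2a1 and Col9a2. Whether the order is particular to cartilage chains was not tested. White adipocyte markers lay higher in all 5 tested, with Adipoq and Lep under the filter and sums of 11.59 to 11.74 in wild type and 11.98 and 12.02 in Akita. Fabp4, the brightest of that list at 11.52 to 11.67 in wild type and 11.91 in both Akita arrays, set most of these sums. Of 8 macrophage markers 6 lay lower, with sums of 11.02 to 11.12 and 10.80 and 10.99. Of 6 brown adipocyte markers, 5 were tested (Elovl3 was under the filter) and 3 lay higher, with sums of 12.25 to 12.28 in wild type and 12.25 and 12.27 in Akita. These sums were set mainly by the brightest genes, Cox8b and Ppargc1a, which differed by -0.03 and -0.15. Ucp1, much dimmer, stood at 5.35 and 6.82 in Akita against 4.17 to 4.36 in wild type (adjusted p = 0.131). Of 8 skeletal muscle markers, Myh4, Myh1 and Mylpf were under the filter and 3 of the other 5 lay lower. The red blood cell list had 2 genes analysed here, Slc4a1 and Bpgm, which differed by 0.23 and -0.23.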

How the data were processed

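Total RNA (150 ng a sample) was labelled with the Affymetrix WT Plus kit, per the labels' protocols. The deposited log2 values, 1 per probe set and array, were made by the authors with Affymetrix Expression Console, per the submitters' processing notes; the sources used here do not give its version, summarisation or genome build. The log base was read from the range, 1.27 to 13.66. Array medians over all 41345 probe sets ran from 4.53 to 4.71. A normalization over arrays would hide a change common to most genes, and any background left in a dim signal shrinks its difference.

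The platform annotation gave 23521 probe sets a single symbol, 1814 several and 16010 none or no entry; 1 probe set shared by a collagen and another symbol was left out. Genes whose mean lay below 4.06, the 30th percentile, were dropped. Akita minus wild type was fitted with limma 3.58.1 (R 4.3.3; lmFit, eBayes, two-sided, Benjamini-Hochberg over 15528 genes, threshold 0.05), with 3 residual and 4.38 prior degrees of freedom. On simulated data of 15528 genes it recovered 84% of log2 changes of 1 and 99% of 2, with 3 false among 186 calls. The simulated noise was independent between arrays, with the same spread in both groups. In the data some genes differed more within Akita: Col3a1 had an SD of 0.71 in Akita and 0.17 in wild type. Ucp1 differed by 1.84 and was not called (adjusted p = 0.131 by limma). Recovery under such unequal spread was not tested. Tables and figures used Python 3.11.15, pandas 2.3.3 and matplotlib 3.10.9. Values in full were given for the 10 chains of smallest p and 13 chains chosen for their place in heart matrix, up to 3 genes of each related list with Ccn2, Serpinh1, Lox and Postn, and from marker lists some of the 2 brightest genes each; Col2a1, Col10a1, Col14a1, Chad and Ucp1 were named after their values were seen. Members, lists and tests were chosen with earlier results of these data known. Likeness of other genes to Col1a1 and Col4a1 was not computed, since 5 arrays are too few for a correlation. No batch is named. The alternatives were other filters (1 of them on the wild type mean), the mean of probe sets, other scalings, an intensity trend with a robust prior, and each array left out, where a lone Akita array is assumed to vary like the others.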

Additional observations from a re-analysis of the deposited data

How the results depend on the processing

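Under every alternative run, 0 collagen chains passed the threshold, and the chains with an unadjusted p under 0.05 numbered 3 to 7. With the 50th percentile filter 22 of 24 tested chains lay higher, and with arrays centred over the genes tested, a setting chosen after seeing the data, 41 of 41 did. The median over all chains was 0.13 to 0.26 under the other filters, probe set rules and scalings, and 0.07 to 0.20 with an array left out (fibrillar chains 0.05 to 0.21, basement membrane chains -0.02 to 0.26, other chains 0.11 to 0.19). For other chains it was 0.22 with the 50th percentile filter and 0.25 with centring over the genes tested. Genes past the threshold over all genes numbered 51 (33 higher, 18 lower), and 86 (68 higher, 18 lower) without a filter, 32 with quantile normalization again, 30 (25 higher, 5 lower) with centring over the genes tested, 35 with the filter on the wild type mean, 197 (60 higher, 137 lower) with a trend and robust prior, and 9 to 44 with an array left out. The median over all genes tested was -0.03, -0.06 with centring over all genes and 0.06 with centring over those tested. Of the 41 chains, 13 turned lower and 1 higher without Akita replicate 3, 7 and 2 without Akita replicate 1, 5 and 0 without wild type replicate 3, 1 and 0 without replicate 4, 0 and 2 without replicate 5, 1 and 0 with the mean of probe sets, 3 and 2 with quantile normalization, 2 and 0 with centring over all genes, and 0 and 3 with centring over the genes tested. Among the genes named by rule, the sign changed for Col6a1 with the mean of probe sets (-0.0308), which averages a probe set of the other direction, Lox with quantile normalization (-0.037) and with centring (-0.00167), and Col6a3 and Serpinh1 with centring (-0.015 and -0.025); the cause was not tested. With an array left out, those that changed sign ranged as follows: Col3a1 -0.0267 to 0.98, Col15a1 -0.0167 to 0.62, Col18a1 -0.0267 to 0.195, Col4a2 -0.085 to 0.17, Col5a2 -0.20 to 0.38, Col6a2 -0.0267 to 0.39, Col6a3 -0.24 to 0.28, Col8a1 -0.17 to 0.28, Lox -0.22 to 0.28 and Serpinh1 -0.0533 to 0.0667. No paired analysis was possible because the groups share only replicate number 3. With 3 and 2 arrays, changes smaller than 1 log2 unit were not covered by the simulated data, and signals near the filter have little room above background.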
